A study of Mus musculus with 4 samples.

Results

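Cycling macrophages of the mouse heart were taken here as the barcodes that carried both the complement transcripts of tissue macrophages and transcripts of dividing cells. A barcode counted when at least 200 genes were detected, under 10% of its UMIs (unique molecular identifiers, counted molecules) were mitochondrial, C1qa, C1qb and C1qc summed to 20 or more UMIs, and Top2a and Mki67 summed to 3 or more. Barcodes with more than 1 UMI of Cd3d, Cd3e and Cd3g, more than 4 of Cd79a, Cd79b and Ms4a1, or more than 2 of Csf3r and Retnlg were left out. The members were thus chosen by their measured C1q, Top2a and Mki67 UMIs, and the rule found 332 cells of 6836 that passed the cell filter. Of these, 311 came from hearts given an anti-CD40 agonist antibody and 21 from hearts given rat IgG isotype antibody. They were set against the other C1q-high cells, which met the same limits but held at most 2 Top2a and Mki67 UMIs, numbering 1781 in the anti-CD40 library and 598 in the isotype library.

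The study measured RNA and 198 antibody tags in the same cells (CITE-seq) from perfused, enzymatically digested hearts with the atria removed. Both groups were C57BL6J mice, and each library pooled 4 mice, so each group had 1 library and no difference between anti-CD40 and isotype has a replicate check. The sample labels name a sort for living CD45+ cells, whereas the series' design text names nucleated living cells (DRAQ5+DAPI-). Antibody dose, interval after injection, age and sex are not given in the labels used here. Intervals below are 95% intervals for counting error in these libraries only and say nothing of the spread between mice. Members share a library and are not replicates.

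Tissue macrophages can divide in place, whereas their other source, blood monocytes, enters the tissue and differentiates there. In the cell cycle, DNA and histones are made in S phase, chromosomes are condensed and separated in G2 and M phase, and cyclins bound to cyclin-dependent kinases drive each step. Top2a, which untangles DNA strands, and Mki67, a coat protein of mitotic chromosomes, rise late in the cycle, so a choice on these transcripts favours G2 and M over early S phase. CD40 is a receptor of antigen-presenting cells, macrophages among them, and an agonist antibody engages it in place of its T cell ligand.

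Promoters of 8 cell cycle genes are shown, since the lists of G2/M and S-phase genes described below differ in how often their promoters hold certain motifs. Birc5 and Tk1 are included as windows without them. Each window spans 250 bases before to 50 bases after the gene start and comes from RefSeq on GRCm38.p6, 5′ to 3′ on the gene's strand. Top2a (chr11:99024140-99024439, minus strand) and Mki67 (chr7:135716330-135716629, minus strand) chose the cells, and Cdk1 (chr10:69352863-69353162, minus strand) and Ccnb2 (chr9:70421505-70421804, minus strand) encode the mitotic kinase and one of its cyclins. Mcm5 (chr8:75109259-75109558, plus strand) and Mcm6 (chr1:128359656-128359955, minus strand) encode subunits of the replicative helicase. Birc5 (chr11:117848987-117849286, plus strand) encodes survivin, a mitotic protein, and Tk1 (chr11:117825965-117826264, minus strand) encodes thymidine kinase. Capitals mark, on either strand, the cell cycle homology region TTTGAA, the CCAAT box, and 3 spellings of the E2F site, TTTCCCGC, TTTGGCGC and TTTCGCGC.
Top2a: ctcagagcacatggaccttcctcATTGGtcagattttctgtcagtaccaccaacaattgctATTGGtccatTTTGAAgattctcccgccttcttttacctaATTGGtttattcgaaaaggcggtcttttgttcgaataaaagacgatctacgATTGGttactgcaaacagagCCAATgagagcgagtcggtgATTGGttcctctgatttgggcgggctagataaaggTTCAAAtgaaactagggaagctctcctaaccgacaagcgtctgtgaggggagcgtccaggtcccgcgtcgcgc
Mki67: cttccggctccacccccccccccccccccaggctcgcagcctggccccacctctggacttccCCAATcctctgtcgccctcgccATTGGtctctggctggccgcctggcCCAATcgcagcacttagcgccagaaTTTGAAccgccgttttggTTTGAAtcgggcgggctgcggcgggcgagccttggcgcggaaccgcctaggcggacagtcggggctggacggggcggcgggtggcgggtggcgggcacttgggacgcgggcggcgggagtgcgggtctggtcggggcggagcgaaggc
Cdk1: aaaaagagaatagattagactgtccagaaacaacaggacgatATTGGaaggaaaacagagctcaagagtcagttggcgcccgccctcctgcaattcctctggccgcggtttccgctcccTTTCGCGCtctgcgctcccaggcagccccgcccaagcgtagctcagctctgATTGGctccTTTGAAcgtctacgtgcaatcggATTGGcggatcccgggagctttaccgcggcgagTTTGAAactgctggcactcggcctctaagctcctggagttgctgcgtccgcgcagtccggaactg
Ccnb2: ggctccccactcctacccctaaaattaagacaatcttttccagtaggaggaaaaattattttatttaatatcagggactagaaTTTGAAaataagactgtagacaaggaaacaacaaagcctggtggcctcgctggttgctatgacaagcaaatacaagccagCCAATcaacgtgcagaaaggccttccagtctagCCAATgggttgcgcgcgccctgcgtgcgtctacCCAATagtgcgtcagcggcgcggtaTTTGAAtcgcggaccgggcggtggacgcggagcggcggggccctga
Birc5: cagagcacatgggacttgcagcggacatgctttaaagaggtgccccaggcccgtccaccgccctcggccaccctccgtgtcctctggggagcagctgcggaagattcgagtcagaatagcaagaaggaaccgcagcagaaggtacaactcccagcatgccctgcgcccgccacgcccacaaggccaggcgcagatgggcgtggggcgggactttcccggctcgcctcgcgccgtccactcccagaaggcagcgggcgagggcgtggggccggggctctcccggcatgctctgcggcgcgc
Mcm5: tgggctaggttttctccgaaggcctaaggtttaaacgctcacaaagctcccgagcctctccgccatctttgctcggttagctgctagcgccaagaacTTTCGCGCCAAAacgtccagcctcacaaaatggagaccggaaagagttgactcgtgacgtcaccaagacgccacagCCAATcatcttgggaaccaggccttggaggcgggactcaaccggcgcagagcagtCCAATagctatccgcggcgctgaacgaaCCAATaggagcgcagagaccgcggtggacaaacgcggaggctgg
Mcm6: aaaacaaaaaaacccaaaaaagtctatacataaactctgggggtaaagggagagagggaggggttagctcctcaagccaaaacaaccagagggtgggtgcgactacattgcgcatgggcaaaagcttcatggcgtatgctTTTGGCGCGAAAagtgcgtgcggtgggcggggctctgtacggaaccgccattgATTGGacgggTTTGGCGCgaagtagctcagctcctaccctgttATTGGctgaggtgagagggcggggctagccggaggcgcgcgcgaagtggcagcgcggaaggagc
Tk1: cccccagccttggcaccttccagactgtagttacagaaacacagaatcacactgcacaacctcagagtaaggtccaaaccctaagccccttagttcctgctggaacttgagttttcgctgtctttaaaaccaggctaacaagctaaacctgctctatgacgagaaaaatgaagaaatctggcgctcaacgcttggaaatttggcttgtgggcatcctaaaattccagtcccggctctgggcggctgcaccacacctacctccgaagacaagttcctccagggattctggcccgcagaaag

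The Top2a, Mki67, Cdk1 and Ccnb2 windows each held 2 matches to TTTGAA, and the Birc5, Mcm5, Mcm6 and Tk1 windows held 0. E2F spellings matched 2 times in the Mcm5 window and 3 times in the Mcm6 window, where a pair of matches on opposite strands overlapped in each, and 1 time in the Cdk1 window. The Birc5 and Tk1 windows held none of the motifs. Of the other windows searched one by one, that of Ube2c held 1 match to TTTGAA and that of Rrm2 held 0 matches to an E2F spelling. Over the longer lists, 62 of 73 G2/M genes and 33 of 49 S-phase genes had a RefSeq window. Some genes had more than 1 start and so more than 1 window. TTTGAA was in 62.7% of the 67 G2/M windows and 12.5% of the 40 S-phase windows, against 17.9% of all 32851 windows of this length. An E2F spelling was in 7.46% of the G2/M windows and 32.5% of the S-phase windows, against 1.84% of all windows. A CCAAT box was in 73.1% of the G2/M windows and 60% of the S-phase windows, against 37.4% of all. These are letter matches only, and a window without one says nothing about binding.

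Cycling cells made up 14.9% of the C1q-high cells in the anti-CD40 library (311 of 2092, 13.4% to 16.5%) and 3.39% in the isotype library (21 of 619, 2.11% to 5.14%). The difference was 11.5 percentage points, with a counting interval from 9.20 to 13.4. Of all cells that passed the cell filter, they were 7.27% in the anti-CD40 library and 0.821% in the isotype library. With Top2a and Mki67 at 10 UMIs or more, the shares were 7.84% in anti-CD40 and 2.10% in isotype.

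Cycling cells were deeper than the rest, and what part of each share follows depth was not tested. They held a median of 17630 UMIs (3004 to 71837) in anti-CD40 and 17797 (3140 to 44308) in isotype, against 10647 UMIs in the other anti-CD40 cells and 7788.5 in the other isotype cells. When every C1q-high cell was thinned to 3000 UMIs, 18.1% of 2021 anti-CD40 cells and 5.10% of 588 isotype cells kept at least 1 Top2a or Mki67 UMI, with 71 and 31 shallower cells left out. The cycling share was higher in anti-CD40 than in isotype in each of 4 depth bands. Among cells of 10000 to 20000 UMIs it was 14.8% in anti-CD40 and 4.46% in isotype. The intervals did not overlap between 5000 and 20000 UMIs. Below 5000 UMIs they did, at 4.69% (2.45% to 8.04%) in anti-CD40 and 1.64% (0.199% to 5.80%, 2 cells) in isotype. Among cells of 20000 UMIs or more it was 32.4% (27.9% to 37.2%) in anti-CD40 and 24.3% (11.8% to 41.2%, 9 of 37 cells) in isotype, and these intervals overlapped too.

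**Figure D1:**
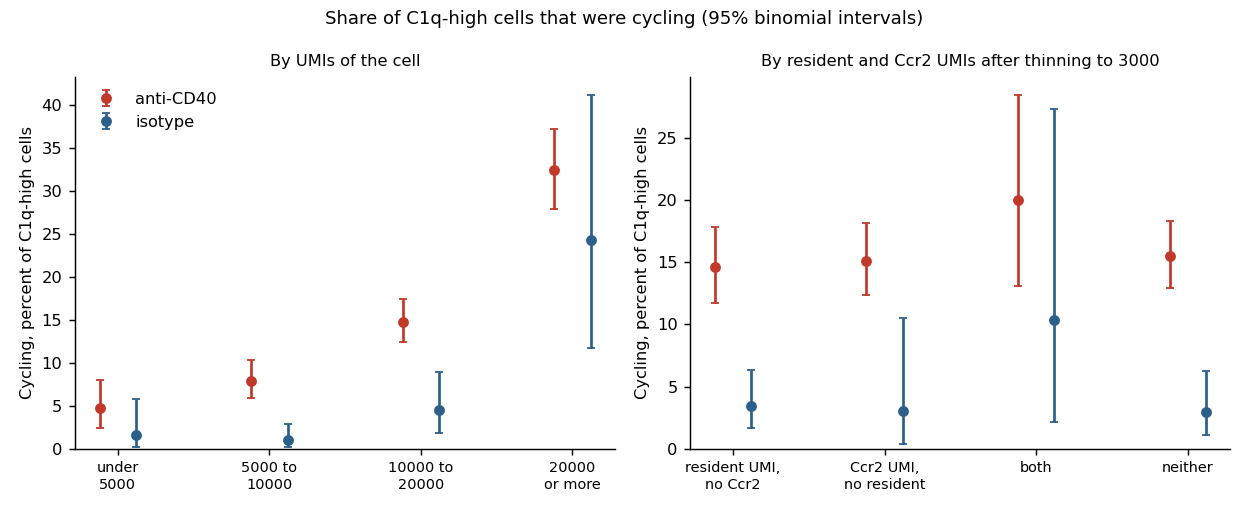
Percent of C1q-high cells that were cycling, anti-CD40 in red to the left of isotype in blue, by UMIs of the cell (left panel) and by resident and Ccr2 UMIs after thinning to 3000 UMIs (right panel), with bars giving 95% binomial intervals. The anti-CD40 share lies above the isotype share in each bin, and the intervals overlap below 5000 UMIs, at 20000 UMIs or more (32.4% in anti-CD40 and 24.3% in isotype) and for cells with both transcripts (20.0% in anti-CD40 and 10.3% in isotype).

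The limits on lymphocyte and neutrophil transcripts removed cycling cells more often than other C1q-high cells. They removed 33.3% of the cycling and 14.3% of the noncycling C1q-high cells in anti-CD40, and 53.3% and 37.9% in isotype. Without these limits the cycling share was 18.3% in anti-CD40 and 4.46% in isotype. The libraries shared 13 barcodes, and 0 of them were cycling cells.

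The macrophage label was checked in RNA and tags. The 10 macrophage marker genes summed to 10920 CPM (a gene's UMIs scaled to a total of 1000000 UMIs for those cells) in cycling anti-CD40 cells and 11681 CPM in cycling isotype cells, lower than the 13397 CPM in the other anti-CD40 and 15803 CPM in the other isotype cells. Csf1r, the receptor for the macrophage growth factor CSF1, had a UMI in 98.4% of cycling anti-CD40 cells and in 100% of cycling isotype cells. The F4/80 tag (the brighter of its 2 features) took 2469 of every 10000 tag UMIs in cycling anti-CD40 cells and 1601 in cycling isotype cells, against 2411 in other anti-CD40 and 2146 in other isotype cells. In single cells its median was 2240 in cycling and 2320 in other anti-CD40 cells, and 1068 in cycling and 2178 in other isotype cells. Macrophage transcripts and surface protein were thus present, at a lower F4/80 level in the isotype members than in the other isotype cells.

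Tags of other lineages were also present, in different kinds in the libraries. CD8a and CD8b tags reached 10 UMIs in 16.1% of cycling anti-CD40 cells (50 of 311) and 7.69% of the other anti-CD40 cells, and in 0 of 21 cycling isotype cells, which allows a share of up to 16.1%. The IgD tag reached 50 UMIs in 28.6% of cycling isotype cells (6 of 21) and 19.9% of the other isotype cells. Counting these with XCR1, CD103, NK-1-1 and Ly-6G tags, 59 of 311 cycling anti-CD40 cells and 8 of 21 cycling isotype cells (38.1%) carried a tag of another lineage. One isotype member held 284 of the 318 XCR1 tag UMIs and 808 of the 823 CD103 tag UMIs of that group, with all 6 Xcr1 transcripts, which are marks of cross-presenting dendritic cells. Whether such barcodes held more than 1 cell was not tested, and leaving them out, a choice made after seeing the data, moved 88 of 238 single gene and tag values beyond counting error and changed the sign of 8.

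Within the anti-CD40 members, G2/M list levels were highest in the cells with most of the 2 choosing transcripts, whereas S-phase levels were not. Top2a and Mki67 together had a median of 11 UMIs (3 to 124) in cycling anti-CD40 cells and 27 (3 to 100) in cycling isotype cells. Just inside the threshold, the 42 anti-CD40 cells with 3 UMIs had a median of 15.1 G2/M and 10.4 S-phase list UMIs per 10000. Just outside it, the 102 anti-CD40 cells with 2 UMIs had 7.62 and 7.39, and the 1380 cells with 0 had 6.24 and 5.23. At 40 UMIs or more, the 50 anti-CD40 cells reached a median of 130 G2/M list UMIs per 10000. Their S-phase median was 25.8, below the 30.5 at 10 to 19 UMIs and the 30.9 at 20 to 39. In isotype, 3 cells had 3 UMIs, with medians of 8.36 G2/M and 7.04 S-phase list UMIs per 10000, and the 7 cells with 2 UMIs had 12.8 and 8.23. The isotype bins of 2 to 9 members had no steady order, with G2/M medians of 115 at 4 UMIs, 22.5 at 5 to 9, 247 at 20 to 39 and 210 at 40 or more, and S-phase medians between 5.54 and 34.7. At the low end, 20 anti-CD40 members (6.43%) and 3 isotype members (14.3%) stayed below the 90th percentile of the other cells for both lists.

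**Figure D2:**
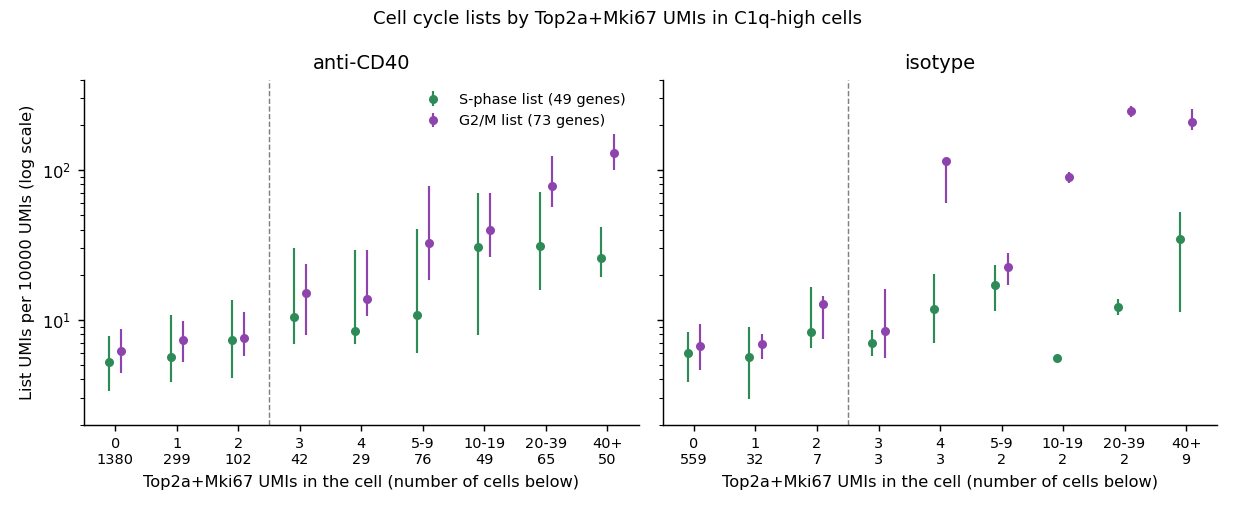
Median UMIs of the 49-gene S-phase list (green) and the 73-gene G2/M list (purple) per 10000 UMIs of the cell, on a log axis, by the Top2a and Mki67 UMIs that chose the cells, for anti-CD40 (left) and isotype (right). Bars run from the first to the third quartile, the dashed line is the threshold, and the anti-CD40 G2/M median is 6.24 at 0 UMIs and 130 at 40 or more.

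Cycling cells stood apart from the other C1q-high cells mainly in the machinery of chromosome separation and DNA replication, which the choice of cells sets, and these values are given as a description. A gene was called when its log2 ratio, with 10 CPM added to both sums, passed 1.5-fold. In anti-CD40, 72 of the 73 G2/M genes past the count minimums were called higher, with a median log2 ratio of 2.23, and 5.08% of all 9699 genes were called higher. In isotype, 51 of 52 were higher, with a median of 3.19, and 6.25% of all 6132 genes were called higher. Of the S-phase genes, 48 of 49 in anti-CD40 (median 1.31) and 8 of 10 in isotype (median 1.60) were called higher. The same call fell on 157 genes in both libraries, 31.8% of those higher in anti-CD40 and 41.0% of those higher in isotype.

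Of the choosing genes, Top2a had 491 CPM in cycling and 10.2 CPM in other anti-CD40 cells, and 646 CPM in cycling and 3.95 CPM in other isotype cells. Mki67 had 489 CPM in cycling and 12.6 CPM in other anti-CD40 cells, and 1055 CPM in cycling and 4.70 CPM in other isotype cells. The difference in these sums is the choice itself.

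Among the genes of the mitotic spindle and kinetochore, Prc1, which bundles microtubules of the spindle midzone, had 137 CPM in cycling and 2.67 CPM in other anti-CD40 cells, a ratio of 51.3 (39.4 to 67.9). In isotype it had 307 CPM in cycling and 2.26 CPM in other cells, a ratio of 136 (75.4 to 270). Nusap1, another spindle microtubule protein, had 105 CPM in cycling and 1.18 CPM in other anti-CD40 cells, and 264 CPM in cycling and 0.753 CPM in other isotype cells. Cenpf, Cenpe and Knl1, proteins of the kinetochore, were 17.6, 17.4 and 50.5 times as high in cycling as in other anti-CD40 cells, and 109, 63.3 and 72.0 times as high in cycling as in other isotype cells. Birc5 and Cdca8, both of the chromosomal passenger complex, had ratios of 33.1 and 22.4 in anti-CD40 and 169 and 54.0 in isotype. These genes were near the detection limit in the other cells, where Birc5 had a UMI in 5.22% of anti-CD40 and 1.67% of isotype cells.

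The kinase and its cyclins followed the same pattern. Cdk1 had 94.0 CPM in cycling and 4.62 CPM in other anti-CD40 cells, and 181 CPM in cycling and 3.39 CPM in other isotype cells. A Cdk1 UMI was seen in 54.3% of the anti-CD40 and 66.7% of the isotype members, so many members carried none. Ccnb2, a mitotic cyclin, had 118 CPM in cycling and 10.7 CPM in other anti-CD40 cells, a ratio of 11.1 (9.55 to 12.9). In isotype it had 287 CPM in cycling and 1.88 CPM in other cells, a ratio of 152 (80.2 to 326). Ccna2, the cyclin of S phase and G2, had 91.8 CPM in cycling and 1.27 CPM in other anti-CD40 cells, and 201 CPM in cycling and 0.376 CPM in other isotype cells. Ube2c, the ubiquitin-conjugating enzyme of the complex that degrades mitotic cyclins, had 231 CPM in cycling and 12.1 CPM in other anti-CD40 cells, and 411 CPM in cycling and 1.13 CPM in other isotype cells. Pttg1, which encodes securin, was the G2/M gene with the lowest ratio, 1.05 (0.904 to 1.21) in anti-CD40 and 0.610 (0.311 to 1.09) in isotype.

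The helicase genes had smaller ratios than the spindle genes. Mcm5 had 84.6 CPM in cycling and 21.1 CPM in other anti-CD40 cells, a ratio of 4.01 (3.53 to 4.55), and Mcm6 had 76.7 CPM in cycling and 31.8 CPM in other anti-CD40 cells, a ratio of 2.42 (2.15 to 2.72). In isotype the Mcm5 ratio was 4.73 (2.88 to 7.55, 26 UMIs in members) and the Mcm6 ratio 1.91 (1.09 to 3.16, 18 UMIs), both under the minimum of 30 UMIs. Pclaf, a partner of the replication clamp, had 270 CPM in cycling and 6.98 CPM in other anti-CD40 cells, and 136 CPM in cycling and 0.376 CPM in other isotype cells. Of the nucleotide synthesis genes, 10 of 26 in anti-CD40 and 4 of 11 in isotype were higher in cycling cells. Of all genes 5.08% in anti-CD40 and 6.25% in isotype were. Tk1, thymidine kinase, had 94.5 CPM in cycling and 7.07 CPM in other anti-CD40 cells, and 88.1 CPM in cycling and 1.13 CPM in other isotype cells. Histone genes were higher in 17 of 19 cases in anti-CD40 and 13 of 13 in isotype, beside the same shares of all genes. Hist1h1b, a linker histone, had 347 CPM in cycling and 5.75 CPM in other anti-CD40 cells, and 246 CPM in cycling and 4.52 CPM in other isotype cells, with a UMI in 48.6% of anti-CD40 and 42.9% of isotype members. Histone genes such as Hist1h2ae and Hist1h2ap are near-identical copies, and reads could be split among them.

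**Figure D3:**
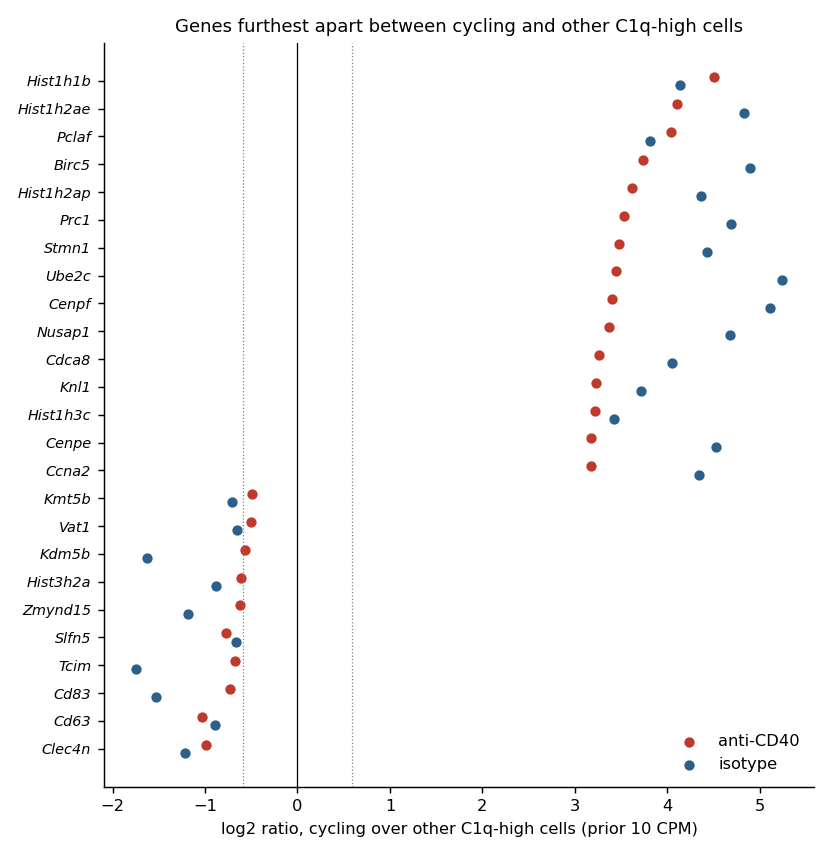
Log2 ratio of CPM, cycling over other C1q-high cells, for the 15 genes highest and the 10 lowest in both libraries by the lesser of their ratios, anti-CD40 in red above isotype in blue, with the choosing genes left out and dotted lines at 1.5-fold. The highest genes act in chromosomes, spindle and replication (Birc5 at 3.74 in anti-CD40 and 4.90 in isotype), and the lowest are surface and other genes such as Cd63 at -1.03 and -0.89.

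Genes that regulate entry into the cycle moved less. Of 31 regulators past the minimums in anti-CD40, 16 were higher and 0 lower in cycling cells (median log2 0.66), beside 5.08% and 0.32% of all genes. In isotype 3 of 16 were higher and 1 lower (median log2 -0.051), beside 6.25% and 13.5% of all genes. Foxm1, a transcription factor of G2/M genes, had 29.0 CPM in cycling and 0.680 CPM in other anti-CD40 cells, and 54.2 CPM in cycling and 1.51 CPM in other isotype cells. Cdkn2c, an inhibitor of the kinases bound by D cyclins, was 5.27 times as high in cycling as in other anti-CD40 cells (4.31 to 6.46) and 6.78 times as high in isotype (4.66 to 9.77). Ccnd1, cyclin D1, had 372 CPM in cycling and 361 CPM in other anti-CD40 cells, a ratio of 1.03 (0.984 to 1.08). Cdkn1a, the p53-induced inhibitor p21, had 289 CPM in cycling and 271 CPM in other anti-CD40 cells, and 325 CPM in cycling and 267 CPM in other isotype cells. Myc, a growth transcription factor, had 21.2 CPM in cycling and 19.6 CPM in other anti-CD40 cells, a ratio of 1.08 (0.882 to 1.31). In the list of growth and ribosome assembly genes, 0 of 22 in anti-CD40 were called, a count near the shares of all genes. Nop56 and Nop58 were highest there at ratios of 1.55 and 1.56.

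The share of genes lower in cycling cells differed between the libraries. In anti-CD40, 31 of 9699 genes (0.32%) were called lower. In isotype 825 of 6132 (13.5%) were, and 8 genes were lower in both. Clec4n, which encodes the fungal receptor Dectin-2, had 43.2 CPM in cycling and 95.7 CPM in other anti-CD40 cells, and 27.1 CPM in cycling and 76.2 CPM in other isotype cells. Cd63, a tetraspanin of late endosomes, had 98.4 CPM in cycling and 212 CPM in other anti-CD40 cells, and 199 CPM in cycling and 378 CPM in other isotype cells. Cd83, an activation marker of antigen-presenting cells, had 39.5 CPM in cycling and 72.2 CPM in other anti-CD40 cells, and 63.2 CPM in cycling and 202 CPM in other isotype cells. When the other cells were matched to the members on UMIs, the isotype split was 367 higher and 263 lower, against 383 higher and 825 lower without matching. It was 1192 higher and 919 lower without a count minimum, 285 higher and 1507 lower without cells carrying tags of other lineages, and 41 higher and 1328 lower after thinning, so neither direction of the isotype split held under all settings.

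Most members of both libraries lay on the G2/M side, and the libraries split in degree. Isotype members lay further to that side, and anti-CD40 members spread more over S phase and G2/M. G2/M list UMIs were a median of 69.0% of the S-phase and G2/M UMIs per cell in anti-CD40 members (quartiles 42.4% and 86.7%) and 85.7% in isotype members (73.0% and 94.7%). Under 25% were 18 anti-CD40 members (5.79%) and 0 isotype members, and at 75% or more were 134 (43.1%) and 15 (71.4%). Per cell, the G2/M list had a median of 50.2 UMIs per 10000 (1.14 to 391) in anti-CD40 and 162 (2.82 to 330) in isotype, against 6.52 in other anti-CD40 cells and 6.70 in other isotype cells. The S-phase list had 21.3 (0 to 101) in anti-CD40 and 11.3 (2.14 to 74.6) in isotype, against 5.36 in other anti-CD40 cells and 6.02 in other isotype cells. An S-phase level at or above the member median was also seen in 104 other anti-CD40 cells (5.84%) and 71 other isotype cells (11.9%), cells that the rule does not take.

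**Figure D4:**
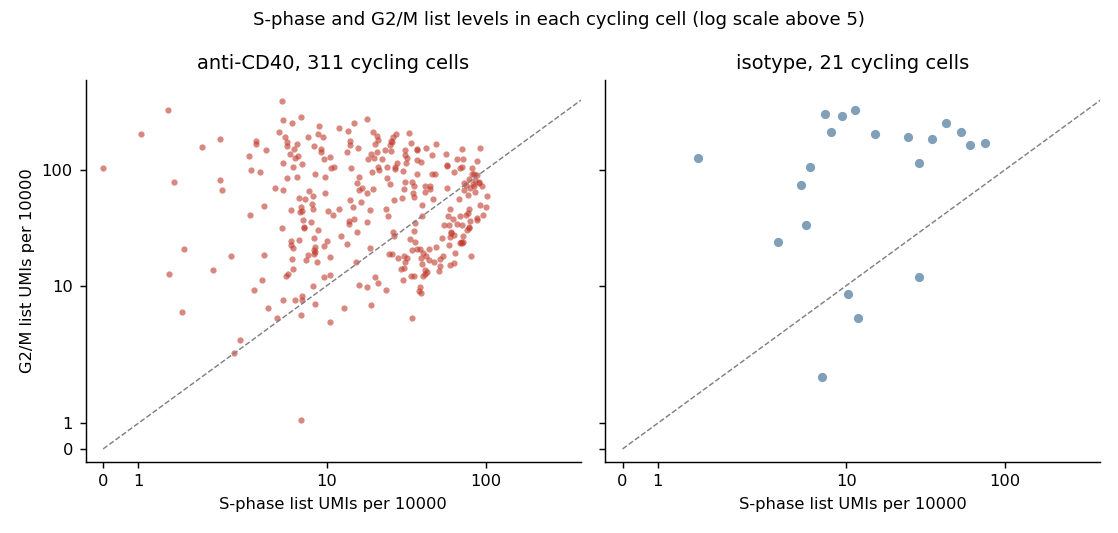
S-phase list UMIs (x axis) and G2/M list UMIs (y axis) per 10000 UMIs in each cycling cell, anti-CD40 (left, 311 cells) and isotype (right, 21 cells), linear up to 5 and logarithmic above, with a dashed line where both are equal. Both libraries have cells on either side of the line and most above it, with medians of 50.2 G2/M list UMIs per 10000 in anti-CD40 and 162 in isotype. The G2/M list has 73 genes and the S-phase list 49, so the line does not mark equal phase.

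The same split was seen gene by gene between the libraries. In cycling anti-CD40 over cycling isotype cells, 15.8% of 5720 genes were called higher and 9.27% lower, with a median log2 ratio of 0.16 over all. Of the genes called, 63.0% were higher, and this split depended on the scaling and the minimum. Without a count minimum 924 were higher and 1686 lower (35.4% higher), since 30 UMIs is a higher CPM in the smaller isotype sum. Without cells carrying tags of other lineages 1480 were higher and 326 lower, and after thinning 1180 higher and 83 lower. TMM factors called 1467 genes higher and 274 lower (84.3% higher), and medians of ratios 1383 higher and 295 lower (82.4% higher), against 902 higher and 530 lower in the main comparison. Of the S-phase genes, 20 of 44 were higher and 0 lower (median log2 0.47). Of the G2/M genes, 0 of 53 were higher and 38 lower (median log2 -0.76), and under TMM scaling 1 of 54 was higher and 24 lower (median log2 -0.53). With stricter limits on T, B, neutrophil and NK transcripts, 2 of 32 were higher and 13 lower (median log2 -0.35). Hells, a chromatin remodeller of S phase, had 59.7 CPM in anti-CD40 and 13.6 CPM in isotype members (6 UMIs), a ratio of 4.40 (2.00 to 12.1). Pclaf had 270 CPM in anti-CD40 and 136 CPM in isotype members, a ratio of 1.99 (1.54 to 2.62). Cdc20, an activator of the cyclin-degrading complex, had 64.3 CPM in anti-CD40 and 190 CPM in isotype members, 2.95-fold lower (2.30 to 3.74), and Kif20a, a kinesin of cytokinesis, was 2.82-fold lower (2.04 to 3.83). Ccnb2 was 2.42-fold lower (1.99 to 2.93) and Cdk1 1.92-fold lower (1.5 to 2.43) in anti-CD40 members. Histone genes were lower in 6 of 15 cases and higher in 0 (median log2 -0.42, and 0.03 with the stricter limits), and nucleotide synthesis genes were higher in 6 of 22 and lower in 0, among them Mthfd2 at 83.0 CPM in anti-CD40 and 33.9 CPM in isotype members.

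Several measured quantities moved with this split. Isotype members held more of the choosing transcripts, as given above. Within cells at 40 or more Top2a and Mki67 UMIs, the G2/M median was 130 per 10000 in 50 anti-CD40 cells and 210 in 9 isotype cells, and the S-phase median was 25.8 in anti-CD40 and 34.7 in isotype. Without cells carrying tags of other lineages, the summed S-phase list was 3114 CPM in 252 anti-CD40 members and 2451 CPM in 13 isotype members, and the G2/M list 7048 CPM in anti-CD40 and 15323 CPM in isotype. With all members the sums were 3062 CPM in anti-CD40 and 2089 CPM in isotype for S phase, and 6719 CPM in anti-CD40 and 12259 CPM in isotype for G2/M. Scaling the sums by TMM factors or by medians of ratios added 0.25 or 0.22 to each log2 ratio of anti-CD40 over isotype members.

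Cycling cells carried the interferon programme of the anti-CD40 library. Of the interferon-gamma response genes, 33 of 34 were higher in anti-CD40 than in isotype members and 0 lower (median log2 2.62), beside 15.8% of all genes. In the other C1q-high cells 34 of 34 were higher (median log2 2.67), beside 6.82% of all genes. Cxcl9, a chemokine that draws T cells, had 1172 CPM in anti-CD40 and 2.26 CPM in isotype members. It had a UMI in 83.3% of anti-CD40 members (median 4.16 per 10000, highest 154) and in 1 of 21 isotype members, a ratio of 519 (93.1 to 20498). Iigp1, a GTPase that attacks pathogen vacuoles, had 975 CPM in anti-CD40 and 2.26 CPM in isotype members. Gbp2, a guanylate-binding protein, had 593 CPM in anti-CD40 and 2.26 CPM in isotype members, and Gbp2b, with 354 CPM in anti-CD40 and 0 UMIs in isotype members, was at least 52.2-fold higher. Ly6a, a surface protein of the interferon response, had 1842 CPM in anti-CD40 and 33.9 CPM in isotype members, where all 15 UMIs came from 1 cell.

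The 15 genes highest in anti-CD40 over isotype members also held complement, chemokine and Fc receptor genes. C3, the central complement component, had 381 CPM in anti-CD40 and 6.78 CPM in isotype members, and Ccl8, a monocyte chemokine, had 233 CPM in anti-CD40 and 2.26 CPM in isotype members. Fcgr4, an activating receptor for IgG, had 358 CPM in anti-CD40 and 11.3 CPM in isotype members, a ratio of 31.7 (13.6 to 97.7). Calhm6, Serpina3g, Gbp8 and Ly6i had 0 UMIs in isotype members and were at least 27.4-fold, 24.4-fold, 19.2-fold and 21.8-fold higher. Among type I interferon genes, 26 of 27 were higher and 0 lower, beside 15.8% and 9.27% of all genes. One of them, Irf7, had 375 CPM in anti-CD40 and 20.3 CPM in isotype members. MHC class II genes were higher in 5 of 8 cases and lower in 0, beside 15.8% and 9.27% of all genes. In single cells the 11 listed MHC class II genes had a median of 463 UMIs per 10000 in anti-CD40 and 94.0 in isotype members. Ciita, the regulator of MHC class II genes, had 242 CPM in anti-CD40 and 113 CPM in isotype members, a ratio of 2.15 (1.62 to 2.90). Cd40 itself had 80.2 CPM in anti-CD40 and 13.6 CPM in isotype members, a ratio of 5.92 (2.70 to 16.2), and the CD40 tag 76.4 and 23.9 per 10000 tag UMIs. Nos2, inducible nitric oxide synthase, had 31 UMIs in anti-CD40 and 0 in isotype members, too few for a ratio.

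Within the anti-CD40 library the interferon genes were close in cycling and other cells. Of 34 interferon-gamma response genes 0 were higher and 1 lower in cycling cells (median log2 -0.16), the one being Cxcl9 with 1172 CPM in cycling and 1776 CPM in other cells, a ratio of 0.660 (0.644 to 0.677). After thinning to 3000 UMIs, 60.5% of cycling (54.8% to 65.9%) and 64.3% of other anti-CD40 cells (62.0% to 66.6%) had a Cxcl9 UMI, against 83.3% and 78.2% unthinned. Cells that should lack Cxcl9, the neutrophils of that library, had one in 14.3% of 63 thinned cells. Of type I interferon genes 0 of 27 (median log2 -0.056) and of MHC class II genes 0 of 11 (median log2 -0.20) were called either way. Among all genes 5.08% were called higher and 0.32% lower, so such counts are near the share of all genes. In isotype, 9 of 18 type I interferon genes were lower in cycling cells and 0 higher, beside 13.5% and 6.25% of all genes. Of 17 interferon-gamma response genes there 2 were higher and 2 lower, and of MHC class II genes 0 of 8 were called. That count rests on sums, which for the 11 listed MHC class II genes were 29591 CPM in cycling and 35014 CPM in other isotype cells. In single isotype cells their median was 94.0 UMIs per 10000 in cycling and 309 in other cells. In anti-CD40 the medians were 463 in cycling and 522 in other cells.

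**Figure D5:**
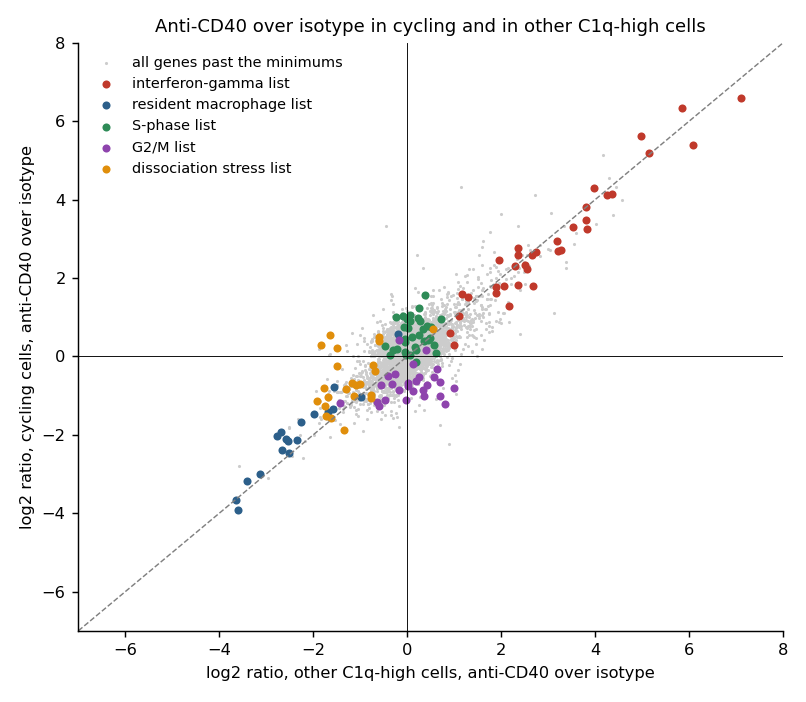
Log2 ratio of CPM, anti-CD40 over isotype, in cycling cells (y axis) against other C1q-high cells (x axis), 1 point a gene past the minimums in both, with the lists in colour and the dashed line where both are equal. The interferon-gamma genes lie along the line at the top right (Cxcl9 at 6.59 in cycling and 7.10 in other cells), the resident macrophage genes at the lower left, and the G2/M genes below the line.

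Genes of resident heart macrophages were lower in the anti-CD40 members. Of 18 past the minimums, 17 were lower and 0 higher (median log2 -2.08), beside 9.27% of all genes called lower. In the other C1q-high cells 20 of 22 were lower (median log2 -2.43), beside 11.9% of all genes. Fcrls, an Fc receptor-like gene, had 18.9 CPM in anti-CD40 and 429 CPM in isotype members, 22.7-fold lower (17.9 to 28.8). It had a UMI in 13.5% of anti-CD40 and 76.2% of isotype members. Ccl24, an eosinophil chemokine, had 1.28 CPM in anti-CD40 and 133 CPM in isotype members, and Ltc4s, leukotriene C4 synthase, had 23.6 CPM in anti-CD40 and 294 CPM in isotype members. Hpgd, which degrades prostaglandins, was 9.51-fold lower (7.92 to 11.4). The growth factor genes Igf1 and Gas6 were 7.94-fold (5.78 to 10.8) and 6.65-fold (5.07 to 8.65) lower. F13a1 and Mrc1, of factor XIII and the mannose receptor, were 4.61-fold (4.13 to 5.14) and 2.75-fold (2.44 to 3.09) lower.

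The 3 classical markers of resident cells behaved unequally. Lyve1, the hyaluronan receptor, had 124 CPM in anti-CD40 and 328 CPM in isotype members, 2.65-fold lower (2.20 to 3.17), but 35.9% of the isotype UMIs came from 1 cell. Without cells carrying tags of other lineages its log2 ratio was 0.21. Folr2, folate receptor beta, had 161 CPM in anti-CD40 and 282 CPM in isotype members, 1.75-fold lower (1.44 to 2.11), and its log2 ratio of -0.77 was within 1.5-fold at -0.53 under TMM scaling and -0.28 without those cells. Its protein tag took 553 per 10000 tag UMIs in anti-CD40 and 1266 in isotype members. Timd4, a receptor for dying cells, had 78.3 CPM in anti-CD40 and 49.7 CPM in isotype members, a log2 ratio of 0.56 that stayed within 1.5-fold, but was 0.78 under TMM scaling and 1.76 without those cells. Only 5 of 21 isotype members had a Timd4 UMI, and 40.9% of these UMIs came from 1 cell. The Tim-4 tag took 87.4 per 10000 in anti-CD40 and 47.9 in isotype members, a ratio of 1.83 (1.67 to 1.99). In the other cells it took 84.0 in anti-CD40 and 79.3 in isotype. Its median in single members was closer, at 15.4 in anti-CD40 and 11.3 in isotype, where 1 cell held 30.3% of the sum. In the other cells the medians were 12.9 in anti-CD40 and 27.1 in isotype.

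Genes of monocyte-derived cells were mixed, with 6 of 16 higher and 4 lower, beside 15.8% and 9.27% of all genes, and 6 higher and 1 lower under TMM scaling. Ly6c2, a monocyte surface marker, had 114 CPM in anti-CD40 and 0 UMIs in isotype members, at least 16.8-fold higher. Ccr2, the receptor that brings monocytes into tissue, had 281 CPM in anti-CD40 and 418 CPM in isotype members. In isotype 42.2% of the Ccr2 UMIs came from 1 of the 6 members that had any, while 63.7% of anti-CD40 members had a UMI. The CCR2 tag took 9.14 per 10000 in anti-CD40 and 6.26 in isotype members.

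Cycling cells were found among cells with resident transcripts and among cells with Ccr2 alike. After thinning to 3000 UMIs, the cycling share in anti-CD40 was 14.6% (11.7% to 17.9%) of cells with a Timd4, Lyve1 or Folr2 UMI and no Ccr2, and 15.1% (12.4% to 18.1%) of cells with Ccr2 and no resident UMI. It was 20.0% of 115 cells with both and 15.5% of 735 cells with neither. In isotype it was 3.47% (10 of 288), 3.03% (2 of 66), 10.3% (3 of 29) and 2.93% (6 of 205) in the same order. Conversely, a resident UMI was present in 32.5% of cycling and 32.1% of other anti-CD40 cells, and in 61.9% of cycling and 53.6% of other isotype cells, against 4.76% and 3.51% of neutrophils. Unthinned, these shares were 55.3% and 47.2% in anti-CD40 and 81.0% and 63.7% in isotype. Cells with neither transcript at this depth may still express one.

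Factors that restrain or drive macrophage division were lower in anti-CD40 members in 6 of 15 cases and higher in 1 (median log2 -0.21), beside 9.27% and 15.8% of all genes. The other C1q-high cells shared this, with 8 of 19 lower and 1 higher (median log2 -0.55), beside 11.9% and 6.82% of all genes. Maf encodes a transcription factor that holds macrophages out of the cycle, and Klf2 and Klf4 encode factors tied to self-renewal and quiescence. Maf had 341 CPM in anti-CD40 and 806 CPM in isotype members, 2.37-fold lower (2.11 to 2.65). Klf2 was 2.46-fold lower (2.19 to 2.75) and Klf4 2.32-fold lower (1.89 to 2.82). Csf1r had 426 CPM in anti-CD40 and 770 CPM in isotype members, 1.81-fold lower (1.61 to 2.02). Within anti-CD40, 0 of 18 of these genes were called between cycling and other cells, beside 5.08% higher and 0.32% lower of all genes. Within isotype 5 of 15 were lower in cycling cells, beside 13.5% of all genes, among them Klf4 with 264 CPM in cycling and 475 CPM in other cells, 1.80-fold lower (1.49 to 2.18).

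Cyclin D1 and 9 of 16 glycolysis genes were also higher in anti-CD40 members. Ccnd1 had 372 CPM in anti-CD40 and 149 CPM in isotype members, a ratio of 2.49 (1.95 to 3.24), and in the other cells 361 CPM in anti-CD40 and 171 CPM in isotype, a ratio of 2.11 (1.97 to 2.26). Cdkn2c was 2.77-fold lower (1.99 to 3.79) in anti-CD40 members. Of the glycolysis genes 1 was lower (median log2 0.67), beside 15.8% higher and 9.27% lower of all genes. Without cells carrying tags of other lineages 5 of 15 were higher. Of all genes 1480 were called higher in that setting, against 902 in the main comparison. The 15.8% therefore does not apply to it, and its own share is not given. In the other C1q-high cells 10 of 17 glycolysis genes were higher and 0 lower (median log2 1.25), beside 6.82% and 11.9% of all genes. Pkm, pyruvate kinase, had 746 CPM in anti-CD40 and 341 CPM in isotype members. Oxidative phosphorylation genes were higher in 3 of 20 and lower in 1, and p53 target genes higher in 1 of 6 and lower in 1, counts near the shares of all genes.

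Genes of dissociation stress, which digestion of tissue induces, were lower in anti-CD40 members in 14 of 23 cases and higher in 1 (median log2 -0.72), beside 9.27% and 15.8% of all genes. In the other cells 22 of 23 were lower (median log2 -1.30), beside 11.9% of all genes. Nr4a1, an immediate early gene, had 15.4 CPM in anti-CD40 and 83.6 CPM in isotype members. Hspa1b, a heat shock protein with the near-identical copy Hspa1a, had 365 CPM in anti-CD40 and 246 CPM in isotype members, against 416 CPM in other anti-CD40 and 1312 CPM in other isotype cells. The part of this list in the other differences was not tested.

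Transcripts of other cell types were also summed. The T cell, B cell and neutrophil sums were held down in part by the rule itself. Its limits on Cd3d, Cd3e, Cd3g, Cd79a, Cd79b, Ms4a1, Csf3r and Retnlg cover genes of those lists. The 10 T cell genes summed to 50.9 CPM in cycling anti-CD40 cells, against 33.1 CPM in other anti-CD40 cells, and to 11.3 CPM with 7 genes at 0 in cycling isotype cells. The 7 NK cell genes summed to 313 CPM in cycling and 188 CPM in other anti-CD40 cells, and 15.8 CPM in cycling and 150 CPM in other isotype cells. Neutrophil genes summed to 587 CPM in cycling and 284 CPM in other anti-CD40 cells, and 61.0 CPM in cycling and 87.7 CPM in other isotype cells. B cell genes summed to 278 CPM in cycling and 205 CPM in other anti-CD40 cells, and 386 CPM in cycling and 572 CPM in other isotype cells. Medians in single anti-CD40 cells did not all follow the sums. Per 10000 UMIs, NK cell genes had a median of 0.704 in cycling and 0.793 in other anti-CD40 cells, and neutrophil genes 1.72 and 2.24. B cell genes had 2.45 and 1.66, the same order as their sums. Ccl5, which T and NK cells also make, had 371 CPM in cycling and 353 CPM in other anti-CD40 cells, and 9.04 CPM in cycling and 154 CPM in other isotype cells, with 26.3% of the last sum in 1 cell. The part of these transcripts in the differences above was not tested.

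The tags gave the surface side of the response. Of 176 tags past the minimum, 52 (29.5%) were higher and 34 (19.3%) lower in anti-CD40 than in isotype members. PD-L1, an inhibitory ligand, took 84.5 of 10000 tag UMIs in anti-CD40 and 5.81 in isotype members, a ratio of 14.6 (11.4 to 18.9). Ly-6A/E, the protein of Ly6a, took 383 in anti-CD40 and 30.3 in isotype members, a ratio of 12.7 (11.4 to 14.1). CD54, the adhesion molecule ICAM-1, took 567 in anti-CD40 and 111 in isotype members, a ratio of 5.09 (4.82 to 5.39). CD163, the haemoglobin scavenger receptor, took 146 in anti-CD40 and 407 in isotype members, 2.80-fold lower (2.71 to 2.88). The Ly-6A/E, CD54 and CD163 shifts were not particular to cycling cells. In the other C1q-high cells Ly-6A/E took 358 in anti-CD40 and 35.5 in isotype, CD54 601 and 77.4, and CD163 139 and 723. The other tags at the ends of the ranking were those of lymphocytes and dendritic cells, with CD8b, CD8a and KLRG1 highest, and IgD, CD55, CD79b and CD103 among the lowest.

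Few tags separated cycling from other cells in anti-CD40, and more did in isotype. In anti-CD40, 7 of 186 tags (3.76%) were higher and 4 (2.15%) lower. CD31, an adhesion molecule of endothelium and leukocytes, was lowest in the sums, with 57.0 in cycling and 107 in other cells, 1.88-fold lower (1.85 to 1.92). Its median in single cells was 25.9 in cycling and 22.2 in other cells, not lower, and 1 of the 1781 other cells held 8.92% of their sum. CD90-2, CD8a, CD8b, KLRG1 and CD23 were highest, and without cells carrying tags of other lineages the CD8a and CD8b log2 ratios were -0.10 and -0.032. The transferrin receptor tag CD71 took 12.2 in cycling and 11.4 in other anti-CD40 cells, and its gene Tfrc had 8.99 CPM in cycling and 4.80 CPM in other anti-CD40 cells, a ratio of 1.87 (1.33 to 2.61) that stayed within the fold on the scale used. In isotype, 19 of 178 tags (10.7%) were higher and 32 (18.0%) lower. CD103, XCR1 and integrin beta7 were among the highest there, and without the 1 cell described above their log2 ratios were -1.24, -0.80 and -0.31.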

How the data were processed

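RNA and antibody tags were read from the deposited matrices, which hold raw UMI counts per gene and tag in each barcode, per the file headers; these name Cell Ranger 6.0.1. Cell Ranger 3, Seurat 3 and the builds mm10 and GRCh38 are listed in the submitters' processing notes. No authors' cell annotation was used, and 1 gene and 1 tag are not reported here. Members and gene lists were chosen with earlier results of these data known. UMI counts of each set of cells were summed per library and expressed as CPM (tags per 10000 tag UMIs). Ratios carry exact conditional binomial intervals, and shares carry Clopper-Pearson intervals (95%, counting error only). A gene entered with 30 UMIs and detection in 5% of cells in the higher sum, and was called past 1.5-fold with a prior of 10 CPM (tags: a prior of 1 per 10000). A ratio against 0 UMIs was computed against 3 UMIs. With 1 library a group no test across conditions was run. No doublet caller was run; the limits on lineage transcripts, and tags of other lineages, stand in its place. The genes named for each comparison came from the ends of its ranking (15 highest and 10 lowest, the 2 highest and 2 lowest of each list, 5 and 5 tags) and a fixed list of marker and regulator genes, leaving out the choosing genes, sex-linked, ribosomal and mitochondrial genes; not all are printed, and Cdk1, Mcm5, Mcm6, Mrc1, F13a1 and the tags of marker proteins were picked by role after values were seen. Neutrophils for background shares had 10 or more Csf3r and Retnlg UMIs and at most 2 C1q UMIs. Summing and ratios were tested on simulated data. The tools were Python 3.11.15, numpy 2.4.6, scipy 1.17.1, pandas 2.3.3, R 4.3.3 and edgeR 4.0.16 (TMM factors only). Alternatives covered the thresholds, cell filter, lineage limits, thinning, matching on depth, scaling, prior and minimums. The 5720 to 9699 genes tested are those past the minimums of 32285.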

Additional observations from a re-analysis of the deposited data

Results flagged for a closer look

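In 3 genes the cycling cells of the libraries lay on opposite sides of the other C1q-high cells, each past 1.5-fold, and the difference between the libraries was not tested. Cd9, a tetraspanin, had 74.6 CPM in cycling and 134 CPM in other anti-CD40 cells, and 287 CPM in cycling and 152 CPM in other isotype cells, with 127 UMIs in 18 of the 21 isotype members. Its log2 ratio of cycling over other cells was -0.77 in anti-CD40 and 0.87 in isotype, a difference of -1.64. Lyz1, a lysozyme with the close relative Lyz2, had 115 CPM in cycling and 187 CPM in other anti-CD40 cells, and 74.5 CPM in cycling and 27.3 CPM in other isotype cells. Its difference was -1.83, and 66.7% of its 33 isotype member UMIs came from 1 cell. Sept1, a septin of the cytoskeleton, had 18.9 CPM in cycling and 8.74 CPM in other anti-CD40 cells, and 0 UMIs in cycling isotype cells with 13.5 CPM in other isotype cells, at least 2.00-fold lower. Its difference was 1.86 on the log2 scale.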

How the results depend on the processing

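No paired analysis was possible because each group had 1 library, and for the same reason no replicate could be left out. The isotype values rest on 21 cells, so a single cell can set a gene's level there. Across 198 recomputations of 15 main results, 173 kept their value within counting error or their count within 1.5 times, and of 3450 recomputed single gene values 2696 did not move, 733 moved and 5 genes and 16 tag values changed sign in all. The cycling share of the anti-CD40 library was 19.7% with Top2a and Mki67 at 2 or more, 11.5% at 5 or more, 11.6% with stricter limits on T, B, neutrophil and NK UMIs, and 18.1% after thinning, and the difference between the libraries was 15.2, 9.05 and 8.35 points under the first 3. Genes called in anti-CD40 over isotype members numbered 2610 without a minimum, against 1432. Cycling over other genes in anti-CD40 (524) numbered 331 after thinning and 988 with a prior of 1 CPM. In isotype (1208) they numbered 630 with cells matched on depth, 1990 with a prior of 1 CPM, and 2111 without a minimum. S-phase genes called higher were 30 after thinning in anti-CD40 (48), and in isotype (8) were 1 with stricter limits, 0 after thinning, 34 without a minimum and 3 without other-lineage tags. G2/M genes called higher in isotype (51) were 26 with stricter limits and 7 after thinning, and resident genes called lower in anti-CD40 members (17) were 9 after thinning. Tags called in cycling over other anti-CD40 cells (11) were 17 when cells needed 500 genes and a mitochondrial share below 5%, 20 with cells matched on depth, 20 scaled to control tags and 7 without other-lineage tags. Fewer genes pass the minimums when counts are thinned or cells removed, and other causes were not tested. Log2 ratios that changed sign were Lyve1 and Rrm2 in anti-CD40 over isotype members (0.21 and -0.070 without other-lineage tags), and in isotype cycling over other cells Slfn5 (0.0020, stricter limits), Kdm5b (0.0054, thinned) and Ccl5 (0.27, threshold of 2). CD103 in anti-CD40 over isotype members was 1.35 with stricter limits, 0.31 without other-lineage tags and 0.75 without the XCR1 cell, and in isotype cycling over other cells -1.50, -0.67 and -1.24. There XCR1 was -1.15, -0.63 and -0.80 under the same settings, integrin beta7 -0.65 without other-lineage tags and -0.31 without the XCR1 cell, CD117 1.35 with matched cells, and CD49b 1.33 at a threshold of 2. In anti-CD40 cycling over other cells CD8b was -0.032 and CD8a -0.10 without other-lineage tags, and KLRG1 -0.11 with stricter limits. Leaving out cells with tags of other lineages, or the XCR1 cell alone, was chosen after seeing the data. Shares have no value under scaling, prior, minimum or matching, and tags were not thinned.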
